A study of Homo sapiens with 8 samples.

Results

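The transcripts described are those of 40 genes of programmed cell death: the BCL2 family, the death receptors with their ligands and adaptor, the caspases, the apoptosome and the inhibitor of apoptosis proteins. They were found on the array by gene symbol, and each of the 40 had at least 1 probe. They account for 40 of the 36337 gene names and 66 of the 50599 probes on the array. A single probe covered 23 of them and several probes covered 17, and a gene with several is described by its brightest probe unless another is named.

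The RNA came from DLD1, an established colorectal adenocarcinoma cell line, and was measured on 8 single-colour Agilent arrays in 4 groups of 2. Cells received a control siRNA (siCONT) or an siRNA against UHRF1 (siUHRF1) for 48 h and were then kept for 24 h in either ethanol, as mock, or 300 nM TSA (trichostatin A), which blocks histone deacetylases. UHRF1 is the protein that brings the maintenance methyltransferase DNMT1 to newly replicated DNA. The groups are siCONT mock, siUHRF1 mock, siCONT TSA and siUHRF1 TSA, all from the same line and with no genotype difference between them. The 2 arrays of each siUHRF1 group carried RNA from 2 different siRNAs, so their spread holds the difference between siRNAs. The sources do not say whether the 2 siCONT arrays of an agent came from separate cultures, and p-values then measure only the spread between these samples, which may be technical.

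Apoptosis runs along 2 routes that meet at the caspases. In the mitochondrial route, BH3-only proteins sense stress, block the pro-survival BCL2 proteins and free the effectors BAX and BAK1 to open the outer mitochondrial membrane, after which cytochrome c and APAF1 form the apoptosome that activates caspase 9. In the receptor route, ligands such as TRAIL and FAS ligand gather their receptors with FADD and caspase 8, and the inhibitor of apoptosis proteins restrain both routes further down.

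Levels are log2 of the processed signal relative to the 75th percentile of the same array, so a difference of 1 is a 2-fold change, and levels of different probes cannot be compared. The 75th percentiles lay between 137 and 189 signal units, 43.3 to 48.0% of probes were well above background, and no spot was saturated. The 2 siCONT arrays of an agent differed by only 1.16 (mock) and 1.08 (TSA) times the noise between spots of 1 array, against 12.5 and 10.3 times for the 2 siUHRF1 arrays. The siCONT arrays of an agent were therefore counted as 1 sample in means and n, with no SD, and beside the limma fit on all 8 arrays each call is given an adjusted p from a fit with siCONT as 1 sample. A gene is called, and said to have risen or fallen, at a Benjamini-Hochberg adjusted p below 0.05 in the 8-array limma fit with at least a 2-fold change. All arrays shared 1 slide, but the mock arrays lay in row 1 and the TSA arrays in row 2, so TSA and slide row cannot be told apart.

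UHRF1 itself had levels of 1.98 and 2.01 in siCONT mock, 0.34 and -0.02 in siUHRF1 mock, 1.04 and 1.01 in siCONT TSA and -1.55 and -2.14 in siUHRF1 TSA. It fell by 1.83 (SE 0.22, adjusted p = 0.012) with depletion under mock and by 2.87 (SE 0.22, adjusted p = 0.00234) with depletion under TSA, as the labels state, while with siCONT as 1 sample these adjusted p were 0.252 and 0.0535. All 7 epithelial markers were above background on every array. Of the leukocyte markers, CD14 was above background on both arrays of each group, while PTPRC and CD3E, which define leukocytes, were not in any group. Of the 5 fibroblast markers, COL1A1 was above background on both arrays of both TSA groups and in neither mock group, and PDGFRB in siUHRF1 mock. Their summed signal, in multiples of the 75th percentile, was 0.198 and 0.208 in siCONT mock, 0.217 and 0.305 in siUHRF1 mock, 0.44 and 0.572 in siCONT TSA and 0.628 and 1.11 in siUHRF1 TSA, and the part of these marker levels in the results was not tested.

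Of the 40 apoptosis genes, 34 were well above background on all 8 arrays. FASLG and CASP1 were above it on none, BNIP3 and TNFRSF10C on 1 array, TNFSF10 on 4 and BCL2 on 6, and 36 genes were tested in at least 1 comparison. Calls were made for 9 of the 40: the BH3-only genes BBC3, BID, BMF and BCL2L11, the ligand TNFSF10, the receptor TNFRSF10A, and CASP10, APAF1 and BIRC3. No share of all genes called in at least 1 comparison is given, so this count is not set against a background. The other 31 were called in no comparison, and among the 26 of them above background everywhere the span from the lowest to the highest of the 8 arrays was 0.30 to 1.57, with a median of 0.76. For 21 of these 26 the span was under 1, so no pair of arrays differed 2-fold. The spans of all genes are not given beside these.

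UHRF1 depletion under mock called 0 of the 35 members tested in either direction by limma. The methods' t-test called 1 member (BIRC3), against 573 of all genes. That t-test was judged at an unadjusted p below 0.05 with 2-fold, here and wherever it is named. With Benjamini-Hochberg adjustment it called 0 members in this comparison. At an unadjusted p below 0.05 in limma 3 members were higher and 6 lower, and no share of all genes is given at that threshold. Among the 16786 genes tested, 3.31% were called higher and 0.900% lower, and 0.0238% with siCONT as 1 sample. TSA in siCONT cells called 1 of 36 higher (BIRC3) and 3 lower (BBC3, BID, TNFSF10). The background there was 10.4% higher and 8.33% lower, and 1.65% with siCONT as 1 sample, a fit that called none of the members in that comparison.

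The combination of depletion and TSA against siCONT mock called 2 of 36 higher (CASP10, BMF) and 4 lower (BBC3, BID, TNFSF10, APAF1), against 15.3% and 11.1% of all genes tested, and with siCONT as 1 sample 3 members (BID, BMF, BBC3) against 16.2%. Depletion under TSA called 0 of 35 higher and 1 lower (TNFRSF10A), against 5.92% and 2.88%, and none with siCONT as 1 sample against 0.797%. TSA in depleted cells called 3 of 36 higher (BIRC3, CASP10, BMF) and 4 lower (TNFSF10, BBC3, BID, BCL2L11), against 12.2% and 9.07%. This comparison kept 6 of its 7 calls with siCONT as 1 sample, all but BCL2L11, where 18.2% of all genes were called.

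The interaction, which asks whether the TSA change differed between depleted and siCONT cells, called 0 of 36 members in limma, with 6 higher and 3 lower at an unadjusted p below 0.05. Its background of calls was 3.01% higher and 2.03% lower, and 0.00% with siCONT as 1 sample, and no such share is given for the unadjusted p of this fit. With the siRNA number as a block within each siRNA arm, limma called the interaction for 0 of the 18415 genes tested, against 928 without the block, and 5663 genes, 10 of them members, had an unadjusted p below 0.05. The median change over the members was -0.08 for depletion under mock, 0.11 for TSA in siCONT, -0.09 for the combination, -0.06 for depletion under TSA and -0.04 for TSA in depleted cells. The medians of all genes tested were -0.10, -0.13, -0.14, 0.01 and -0.04 in the same order, and the shares of members called lie near or below the background in each comparison. Comparisons that share the siCONT mock or siUHRF1 mock arrays are not independent of each other.

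**Figure D1:**
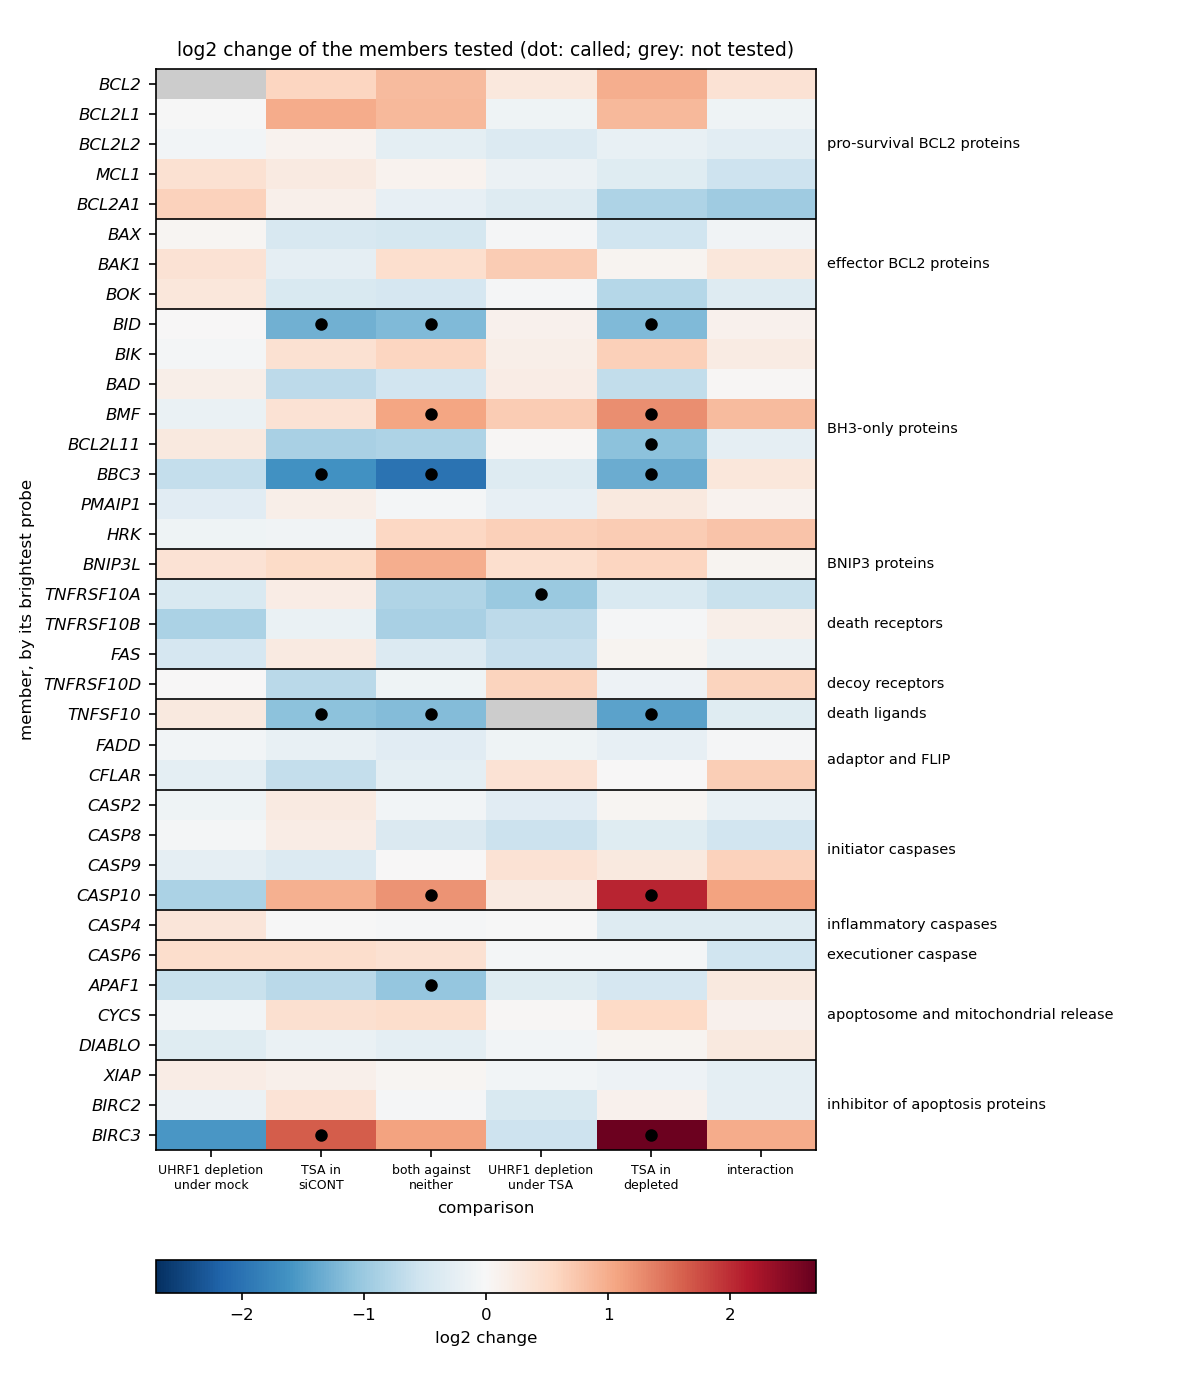
Log2 change of the 36 tested apoptosis genes (rows, grouped by role) in the 6 comparisons (columns), with a dot for each call and grey where a gene was not tested. The dots sit in 9 rows, and the column of depletion under mock and the column of the interaction hold none.

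None of the 5 pro-survival genes, whose proteins hold BAX and BAK1 in check, was called in any comparison. The nearest was BCL2L1, which encodes BCL-XL and had levels of 0.37 and 0.39 in siCONT mock, 0.48 and 0.28 in siUHRF1 mock, 1.34 and 1.41 in siCONT TSA and 1.25 and 1.27 in siUHRF1 TSA. All 4 TSA arrays lay above all 4 mock arrays. The difference was 0.99 in siCONT (SE 0.12, adjusted p = 0.00218) and 0.88 in depleted cells (SE 0.12, adjusted p = 0.00264), just short of the 2-fold minimum both times. The combination differed from siCONT mock by 0.88 (SE 0.12, adjusted p = 0.00207). With scaling to the 75th percentile of detected probes alone BCL2L1 was called higher in all 3 comparisons, and with quantile normalization in siCONT. MCL1, a short-lived pro-survival protein, spanned 0.59 over the 8 arrays and BCL2L2, which encodes BCL-W, spanned 0.48. BCL2A1 spanned 1.57, and its change with depletion under mock was 0.05 with siRNA 1 and 1.19 with siRNA 2. BCL2 was above background on only 6 arrays, and its probe read -2.27 and -4.25 on the 2 siCONT mock arrays.

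The effector genes BAX, BAK1 and BOK were likewise called nowhere. BAK1 read 1.00 and 0.97 in siCONT TSA and 1.64 and 1.72 in siUHRF1 TSA, a difference of 0.69 (SE 0.11, adjusted p = 0.0144) that stayed under 2-fold. BAX differed by -0.43 under TSA in siCONT cells (SE 0.12, adjusted p = 0.0337) and by -0.53 in depleted cells (SE 0.12, adjusted p = 0.0166), both also under 2-fold.

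Of the 8 BH3-only genes, TSA in siCONT called 2 lower (BBC3, BID) and 0 higher, against 8.33% and 10.4% of all genes. In depleted cells it called 3 lower (BBC3, BID, BCL2L11) and 1 higher (BMF), against 9.07% and 12.2%. BBC3, which encodes the p53 target PUMA, had levels of 4.88 and 4.84 in siCONT mock, 4.46 and 3.97 in siUHRF1 mock, 3.20 and 3.23 in siCONT TSA and 3.19 and 2.56 in siUHRF1 TSA. Every TSA array lay below every mock array. BBC3 fell by 1.64 with TSA in siCONT (SE 0.25, adjusted p = 0.00451, and 0.141 with siCONT as 1 sample) and by 1.34 with TSA in depleted cells (SE 0.25, adjusted p = 0.0078, and 0.0438), the latter a call lost with the methods' t-test. Against siCONT mock the combination was lower by a log2 difference of -1.98 (SE 0.25, adjusted p = 0.00154), a call kept with siCONT as 1 sample. It was the only BBC3 call kept under all 22 alternatives in processing, with the methods' t-test taken at an unadjusted p.

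BID encodes the BH3-only protein that caspase 8 cuts, which links the receptor route to mitochondria. It read 4.71 and 4.72 in siCONT mock, 4.82 and 4.61 in siUHRF1 mock, 3.41 and 3.42 in siCONT TSA and 3.44 and 3.62 in siUHRF1 TSA, so that the TSA arrays lay together and apart from the mock arrays whichever siRNA was used. BID fell by 1.30 with TSA in siCONT (SE 0.13, adjusted p = 0.00127, and 0.116 with siCONT as 1 sample) and by 1.19 in depleted cells (SE 0.13, adjusted p = 0.00127, and 0.0246). The combination differed from siCONT mock by -1.19 (SE 0.13, adjusted p = 0.000968, and 0.0459), a call lost with quantile normalization (-0.88) and with scaling to the 75th percentile of detected probes alone (-0.95, detected-probe scaling), and depletion alone by 0.00 under mock (SE 0.13) and 0.11 under TSA (SE 0.13). A second BID probe gave the same 3 calls, at -1.16 with TSA in siCONT, -1.18 in depleted cells and -1.10 in the combination. With siCONT as 1 sample only its call in depleted cells was kept.

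BMF, whose product is held at the cytoskeleton until stress frees it, moved the other way. Its levels were 0.05 and 0.05 in siCONT mock, -0.15 and -0.09 in siUHRF1 mock, 0.51 and 0.38 in siCONT TSA and 1.15 and 1.10 in siUHRF1 TSA. The siUHRF1 TSA arrays were the highest, above both siCONT TSA arrays. BMF rose by 1.25 with TSA in depleted cells (SE 0.11, adjusted p = 0.000676, and 0.0181 with siCONT as 1 sample), by 1.30 with siRNA 1 and 1.19 with siRNA 2. The change with TSA in siCONT was 0.40 (SE 0.11, adjusted p = 0.0327), under 2-fold. The difference between these 2 changes was 0.85 (SE 0.16, adjusted p = 0.0393, and 0.599 with siCONT as 1 sample), the only interaction of a brightest probe past the p threshold, and also under 2-fold. With the siRNA number as a block within each siRNA arm its adjusted p was 0.0757. Against siCONT mock BMF rose by 1.08 in the combination (SE 0.11, adjusted p = 0.000814, and 0.0493). This call was lost with median scaling (0.67), normexp (0.86) and the mean over probes (0.45), and that in depleted cells with median scaling (0.86) and normexp (0.98). A second BMF probe was above background on 2 arrays and was not tested in these comparisons.

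BCL2L11 encodes BIM, a BH3-only protein made in several isoforms. Its brightest probe (hg19 chr2:111925892-111925951) read 1.82 and 1.80 in siCONT mock, 1.68 and 2.48 in siUHRF1 mock, 0.97 and 0.91 in siCONT TSA and 0.98 and 0.96 in siUHRF1 TSA. All 4 TSA arrays were lower than all 4 mock arrays, and siRNA 2 under mock stood above the rest. BCL2L11 fell by 1.11 with TSA in depleted cells (SE 0.25, adjusted p = 0.0153, and 0.0699 with siCONT as 1 sample), a call lost without siRNA 2 under mock, where the change was -0.71, and also without siRNA 1 or siRNA 2 under TSA (adjusted p = 0.0619 and 0.0612). Of the other 2 probes, the one at chr2:111886352-111886411 changed by 0.62 with TSA in depleted cells (SE 0.16, adjusted p = 0.0255) and by -0.56 in siCONT, and the interaction of 1.18 (SE 0.23, adjusted p = 0.0427, and 0.538 with siCONT as 1 sample) was called. At chr2:111878705-111878764 the change with TSA was -1.25 in siCONT (adjusted p = 0.024), a call, and -0.65 in depleted cells (adjusted p = 0.152), the same direction as the brightest probe. The BCL2L11 call in depleted cells was also lost with detected-probe scaling (-0.95), normexp (-0.96), the methods' t-test and the mean over probes (-0.38).

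The remaining BH3-only genes were not called. HRK read -2.10 and -2.24 in siCONT TSA and -1.53 and -1.51 in siUHRF1 TSA, a difference of 0.65 (SE 0.12, adjusted p = 0.0192). BAD differed by -0.72 with TSA in siCONT (SE 0.16, adjusted p = 0.0163) and BIK by 0.65 with TSA in depleted cells (SE 0.15, adjusted p = 0.0164), both under 2-fold. PMAIP1, which encodes NOXA, spanned 0.66 over the 8 arrays. Of the BNIP3 proteins, which act in mitophagy as well as cell death, BNIP3L differed by 0.97 between the combination and siCONT mock (SE 0.17, adjusted p = 0.00474), while its other 2 probes differed by -0.67 and -0.91 with neither past the p threshold.

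**Figure D2:**
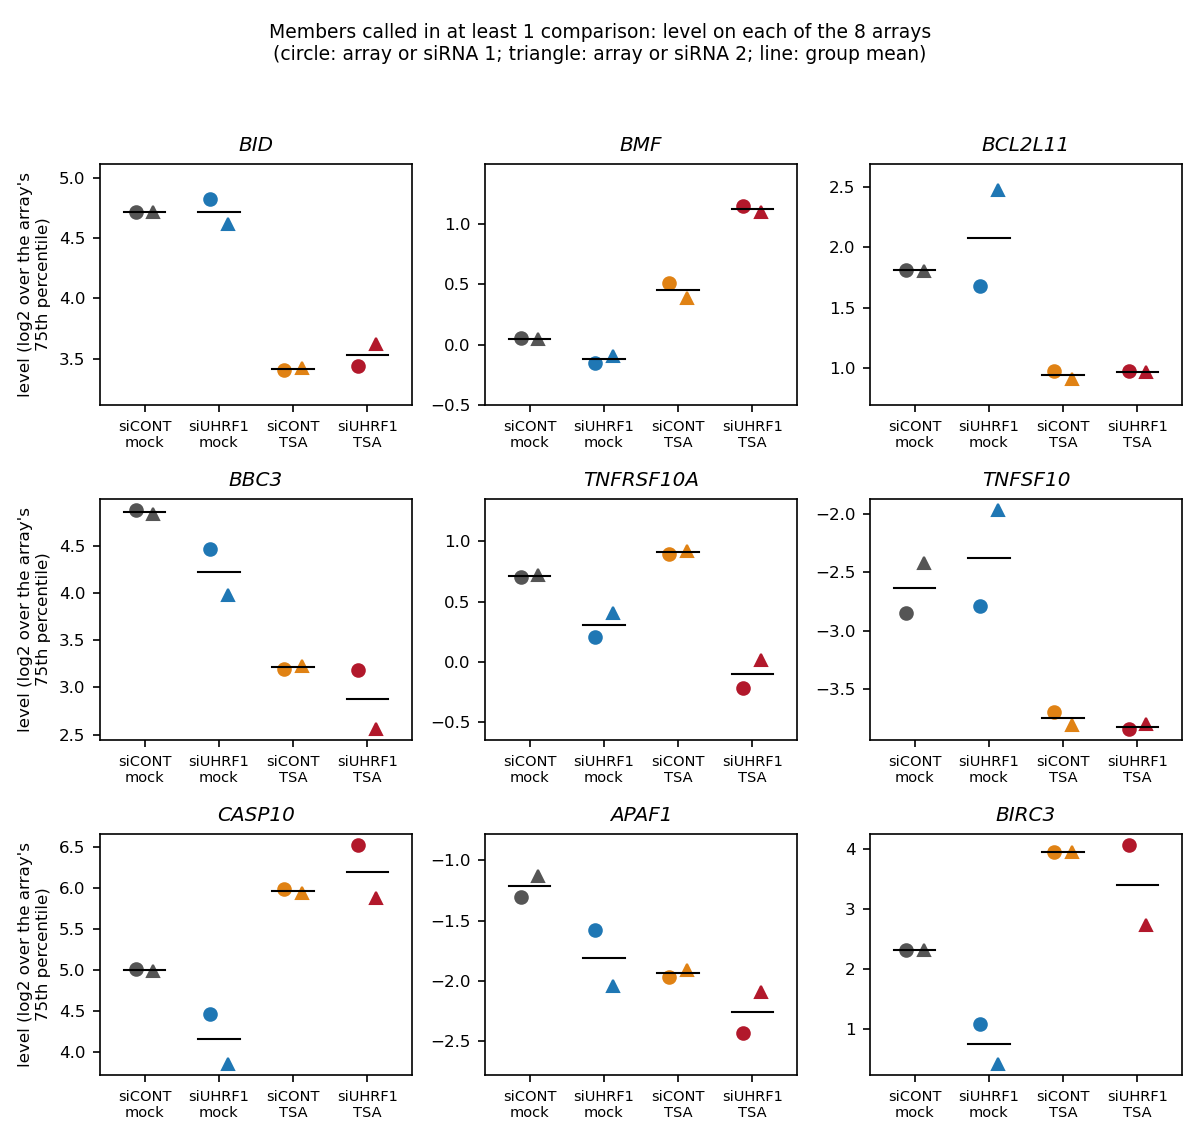
Level of the 9 called genes (log2 of signal over the array's 75th percentile) on each of the 8 arrays by group, with a circle for array or siRNA 1, a triangle for array or siRNA 2 and a line at the group mean. BID and BBC3 sit lower on all 4 TSA arrays than on all 4 mock arrays, and BMF is highest on the 2 siUHRF1 TSA arrays, at 1.15 and 1.10.

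Of the 2 signalling receptors for TRAIL, TNFRSF10A was called lower with depletion under TSA and TNFRSF10B was called nowhere. TNFRSF10A, which encodes DR4, had levels of 0.70 and 0.72 in siCONT mock, 0.21 and 0.41 in siUHRF1 mock, 0.90 and 0.92 in siCONT TSA and -0.22 and 0.02 in siUHRF1 TSA. Both siUHRF1 arrays were below both siCONT arrays under each agent. The gene fell by 1.01 with depletion under TSA (SE 0.14, adjusted p = 0.00875, and 0.232 with siCONT as 1 sample), by 1.13 with siRNA 1 and 0.89 with siRNA 2. Under mock the difference was -0.40 (SE 0.14, adjusted p = 0.111), and the interaction of -0.61 (SE 0.19, adjusted p = 0.108) did not pass. Leaving out either siCONT TSA array ended the call under TSA, with adjusted p of 0.0704 and 0.0745, and leaving out siRNA 1 left -0.89, under 2-fold, as did detected-probe scaling (-0.90) and normexp (-0.84).

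TNFRSF10B, which encodes DR5, read 4.62 and 4.79 in siCONT mock, 3.93 and 3.76 in siUHRF1 mock, 4.47 and 4.57 in siCONT TSA and 3.91 and 3.73 in siUHRF1 TSA. The 4 siUHRF1 arrays lay below the 4 siCONT arrays with either agent. Depletion under mock gave -0.86 (SE 0.14), the lowest adjusted p of any member in that comparison at 0.0235, and 0.462 with siCONT as 1 sample. Under TSA the difference was -0.70 (SE 0.14, adjusted p = 0.0227), and all of these stayed under 2-fold. FAS, the receptor of FAS ligand, was called by its brightest probe nowhere, at -0.44 under mock and -0.62 under TSA with depletion. A dimmer FAS probe was called lower under TSA, at -1.23 (SE 0.32, adjusted p = 0.0476, and 0.342 with siCONT as 1 sample).

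Decoy receptors bind TRAIL without passing on a death signal. TNFRSF10D read 2.37 and 2.36 in siCONT mock, 2.49 and 2.28 in siUHRF1 mock, 1.63 and 1.66 in siCONT TSA and 2.28 and 2.23 in siUHRF1 TSA. Only the siCONT TSA arrays were low. The TSA difference in siCONT was -0.72 (SE 0.12, adjusted p = 0.00624) and the depletion difference under TSA was 0.61 (SE 0.12, adjusted p = 0.0233), neither 2-fold. TNFRSF10C was above background on 1 array.

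TNFSF10, which encodes TRAIL itself, was close to the detection limit. It read -2.85 and -2.43 in siCONT mock and -2.79 and -1.97 in siUHRF1 mock, and on the TSA arrays -3.69 and -3.81 in siCONT and -3.84 and -3.80 in siUHRF1, where it was not well above background. With TSA it was therefore at least 2.07-fold lower in siCONT cells (adjusted p = 0.0253, and 0.264 with siCONT as 1 sample) and at least 2.24-fold lower in depleted cells (adjusted p = 0.01, and 0.0391). These folds set the brighter group against the lowest signal well above background on the other arrays, or the probe's own signal where that was higher. The combination was at least 1.87-fold lower than siCONT mock (adjusted p = 0.017, and 0.112). Leaving out any one siCONT array ended the call in siCONT, with adjusted p of 0.0583 to 0.132, and the combination's call was lost without the second siCONT mock array (adjusted p = 0.0967), siRNA 1 under TSA (0.0702) or siRNA 2 under TSA (0.0647). With normexp all 3 calls were lost (-0.40 in siCONT, -0.30 in depleted cells and -0.34 in the combination), as they were with the mean over probes. Detected-probe scaling ended those in siCONT and the combination, no filter on dim probes that in siCONT and the methods' t-test that in depleted cells. A second TNFSF10 probe was called lower with TSA in both siRNA backgrounds, and FASLG was above background on no array.

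FADD, the adaptor of both receptor systems, spanned 0.42 over the 8 arrays and was not called. CFLAR encodes FLIP, which competes with caspase 8 at the receptor and is spliced into a long and a short form. Its brightest probe (hg19 chr2:202030660-202030717) differed by -0.65 with TSA in siCONT (SE 0.15, adjusted p = 0.0167) and by 0.01 in depleted cells. The probe at chr2:202000731-202000790 was instead lower with depletion, by -1.08 under mock (SE 0.17, adjusted p = 0.0234, and 0.416 with siCONT as 1 sample) and by -1.28 under TSA (SE 0.17, adjusted p = 0.00875, and 0.188), both called. The probes of CFLAR thus gave different calls within the gene.

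CASP10 was the only caspase among the members that was called. It encodes an initiator caspase close to caspase 8. Its brightest probe (hg19 chr2:202086244-202086303) read 5.02 and 4.99 in siCONT mock, 4.46 and 3.85 in siUHRF1 mock, 5.99 and 5.94 in siCONT TSA and 6.53 and 5.88 in siUHRF1 TSA. All TSA arrays lay above all mock arrays, and the 2 lowest values were those of siUHRF1 mock. CASP10 rose by 2.05 with TSA in depleted cells (SE 0.28, adjusted p = 0.00255, and 0.0186 with siCONT as 1 sample), by 2.07 with siRNA 1 and 2.03 with siRNA 2. This call was kept under all 22 alternatives, with the methods' t-test taken at an unadjusted p. With adjustment that t-test called 0 members in this comparison.

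In siCONT the CASP10 change with TSA was 0.96 (SE 0.28, adjusted p = 0.0352), and the difference between the backgrounds of 1.09 (SE 0.39, adjusted p = 0.138) did not pass. The combination exceeded siCONT mock by 1.20 (SE 0.28, adjusted p = 0.0139, and 0.12), a call lost without either siCONT mock array (adjusted p = 0.0638 and 0.0671) or without siRNA 1 under TSA, at 0.88. The call in the combination was also lost with median scaling (0.80), the methods' t-test and the mean over probes (0.49). Of the other CASP10 probes 2 were tested and not called, and 1 was above background on no array. At chr2:202084646-202084705 the change with TSA in depleted cells was 0.15 (SE 0.14) and at chr2:202057711-202057770 it was 0.41 (SE 0.16, adjusted p = 0.088), so the rise was called with 1 of the 3 tested probes.

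**Figure D3:**
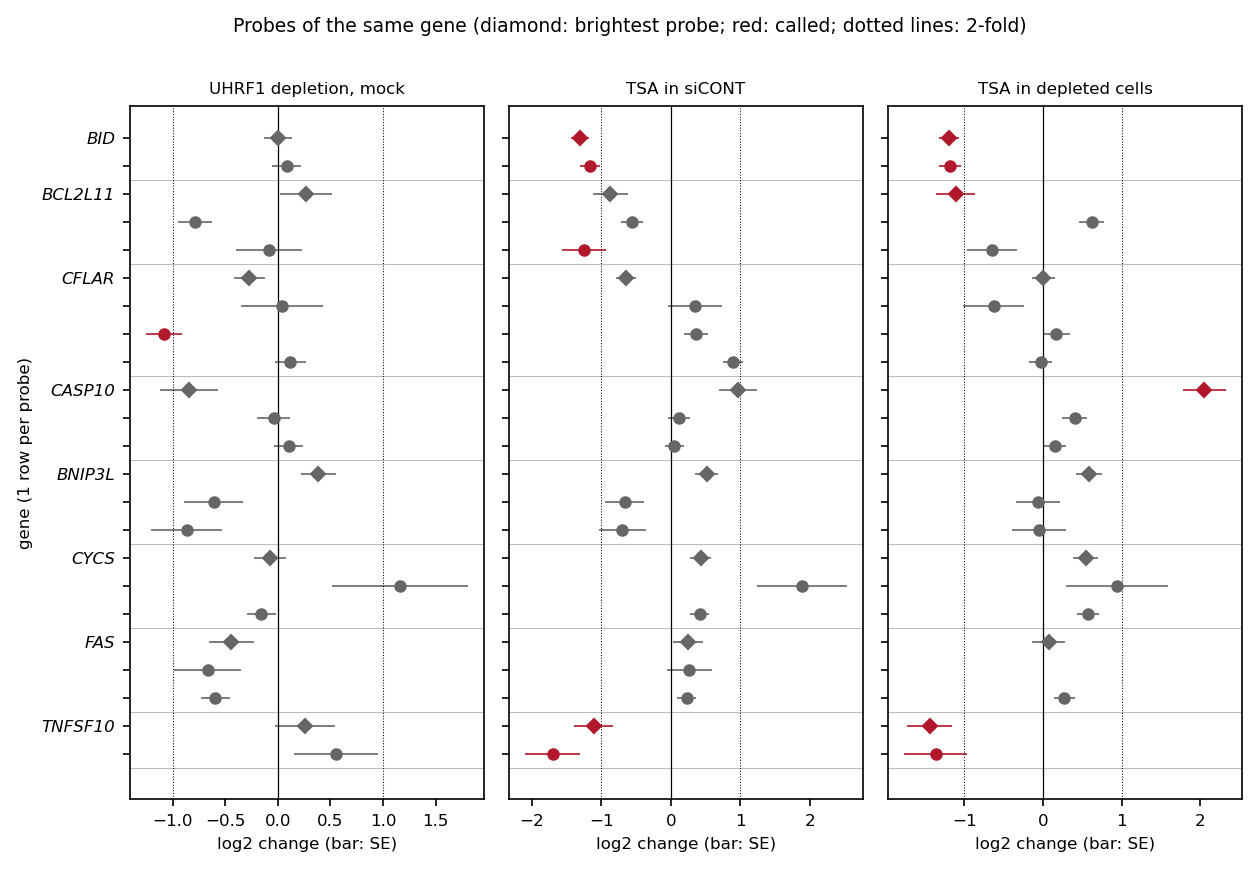
Log2 change of every tested probe of 8 genes whose probes are described or differ (BID, BCL2L11, CFLAR, CASP10, BNIP3L, CYCS, FAS and TNFSF10, chosen after their values were seen) in 3 comparisons, with bars of 1 SE. The 2 BID probes lie together, whereas the brightest CASP10 probe stands apart from the other CASP10 probes and 1 BCL2L11 probe lies above 0 with TSA in depleted cells, at 0.62.

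Caspase 8 (CASP8), the initiator of the receptor route, had a difference of -0.58 with depletion under TSA (SE 0.15, adjusted p = 0.0492), under 2-fold. CASP9, the initiator of the apoptosome, and CASP2 spanned 0.51 and 0.46 over the 8 arrays and were not called. CASP6, an executioner, differed by 0.48 with TSA in siCONT (SE 0.13, adjusted p = 0.0265). Of the inflammatory caspases, CASP1 was above background nowhere, and CASP4 changed by -0.55 with siRNA 1 and 0.52 with siRNA 2 under TSA.

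APAF1, the scaffold of the apoptosome, had levels of -1.30 and -1.13 in siCONT mock, -1.58 and -2.04 in siUHRF1 mock, -1.96 and -1.91 in siCONT TSA and -2.43 and -2.09 in siUHRF1 TSA. Both siCONT mock arrays were the highest of the 8. The combination fell by 1.05 against siCONT mock (SE 0.20, adjusted p = 0.00741, and 0.0978 with siCONT as 1 sample), with -0.59 (SE 0.20, adjusted p = 0.112) for depletion alone and -0.72 (SE 0.20, adjusted p = 0.0327) for TSA alone. The call was lost without the second siCONT mock array, at -0.96, and without siRNA 1 under TSA, at -0.87, and also with detected-probe scaling (-0.80) and normexp (-0.49). CYCS, which encodes cytochrome c, and DIABLO, which releases caspases from their inhibitors, were not called by their brightest probes and spanned 0.80 and 0.45. Another CYCS probe was called higher in the combination, at 2.10 (SE 0.65, adjusted p = 0.0382, and 0.169 with siCONT as 1 sample). That probe read -0.93 and -0.65 in siCONT mock, and 0.54 with siRNA 1 and 2.10 with siRNA 2 in siUHRF1 TSA. For the brightest CYCS probe the combination's change was 0.38 with siRNA 1 and 0.55 with siRNA 2.

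BIRC3, which encodes cIAP2, a ubiquitin ligase of TNF receptor and NF-kappa B signalling, spanned the most of the 34 members above background on all arrays, at 3.64. Its levels were 2.31 and 2.32 in siCONT mock, 1.08 and 0.42 in siUHRF1 mock, 3.95 and 3.94 in siCONT TSA and 4.06 and 2.72 in siUHRF1 TSA. The siUHRF1 mock arrays were the lowest, the TSA arrays were the highest, and siRNA 2 gave lower values than siRNA 1 under both agents. BIRC3 rose by 2.64 with TSA in depleted cells (SE 0.44, adjusted p = 0.0053, and 0.0255 with siCONT as 1 sample), by 2.98 with siRNA 1 and 2.30 with siRNA 2, a call lost with the methods' t-test.

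In siCONT cells BIRC3 rose by 1.63 with TSA (SE 0.44, adjusted p = 0.0289, and 0.282), a call lost when any one siCONT array was left out, with adjusted p of 0.108 to 0.117, and with no filter on dim probes (adjusted p = 0.0727). Depletion under mock gave -1.56 (SE 0.44), which did not pass (adjusted p = 0.077, and 0.549 with siCONT as 1 sample), at -1.23 with siRNA 1 and -1.89 with siRNA 2. The interaction of 1.01 (SE 0.62, adjusted p = 0.322) did not pass either. The related XIAP, which binds caspases directly, spanned 0.30, the least of the 34, and BIRC2, which encodes cIAP1, spanned 0.80.

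**Figure D4:**
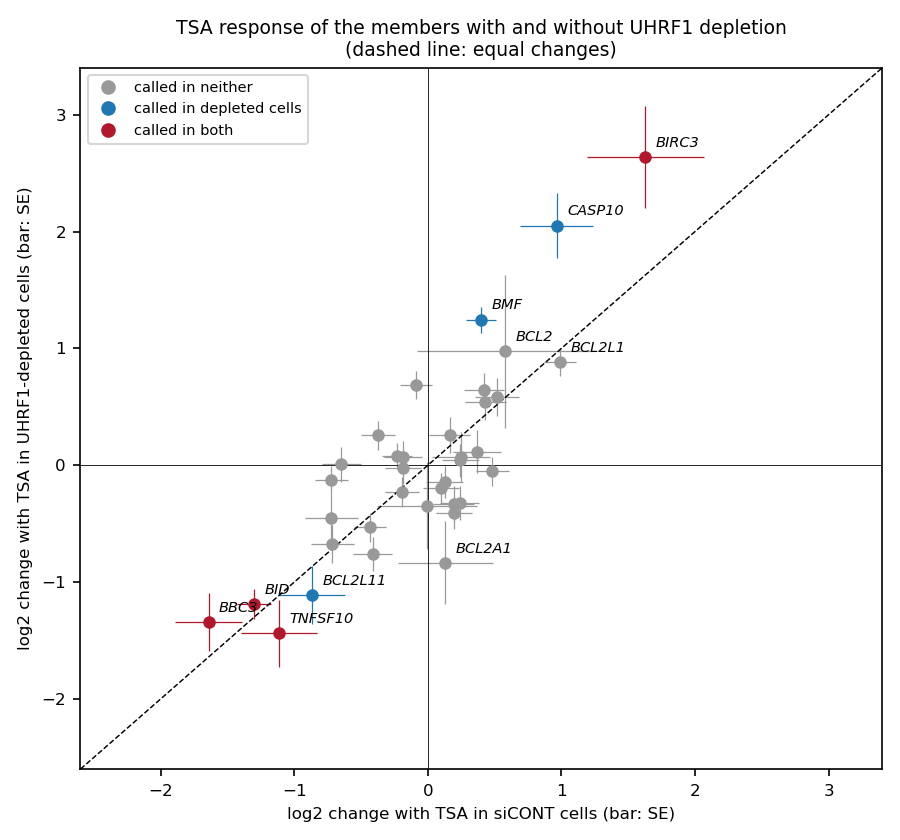
Log2 change with TSA in siCONT cells (horizontal axis) against that in UHRF1-depleted cells (vertical axis) for the tested apoptosis genes, with bars of 1 SE and a dashed line of equality. BID and BBC3 lie at the lower left near the line, and BIRC3, CASP10 and BMF lie above it, although none of their interactions was called.

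The sequence upstream of the listed RefSeq transcription start (250 bases, GRCh38.p14) is given for the 2 called genes whose promoters held a match to the 10-base kappa B consensus, BIRC3 and BMF, both of which rose with TSA in depleted cells, and for 2 that fell, BBC3 and TNFSF10. Capitals mark CG dinucleotides, the sites of DNA methylation that UHRF1 helps maintain, and each sequence runs 5′ to 3′ towards the start. They differ in the number of CG dinucleotides, at 11 for BIRC3, 26 for BMF, 4 for BBC3 and 2 for TNFSF10, against a median of 11 over the 35116 promoters of the table.
BIRC3, chr11:102317234-102317483, plus strand: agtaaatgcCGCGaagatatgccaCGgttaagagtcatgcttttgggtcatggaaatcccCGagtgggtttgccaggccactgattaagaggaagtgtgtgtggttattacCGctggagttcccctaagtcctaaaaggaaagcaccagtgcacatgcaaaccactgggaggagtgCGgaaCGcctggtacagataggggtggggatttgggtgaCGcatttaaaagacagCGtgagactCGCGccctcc
BMF, chr15:40108880-40109129, minus strand: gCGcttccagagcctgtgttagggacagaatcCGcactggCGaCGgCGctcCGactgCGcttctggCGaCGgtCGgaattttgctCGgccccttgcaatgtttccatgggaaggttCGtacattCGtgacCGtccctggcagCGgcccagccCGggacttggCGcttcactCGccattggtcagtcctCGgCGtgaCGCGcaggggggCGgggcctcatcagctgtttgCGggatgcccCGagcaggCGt
BBC3, chr19:47232668-47232917, minus strand: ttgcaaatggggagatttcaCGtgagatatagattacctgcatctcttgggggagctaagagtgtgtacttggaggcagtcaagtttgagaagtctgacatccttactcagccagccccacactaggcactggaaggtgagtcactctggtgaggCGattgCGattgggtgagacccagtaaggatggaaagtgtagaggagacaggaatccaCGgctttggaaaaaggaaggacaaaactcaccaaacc
TNFSF10, chr3:172523431-172523680, minus strand: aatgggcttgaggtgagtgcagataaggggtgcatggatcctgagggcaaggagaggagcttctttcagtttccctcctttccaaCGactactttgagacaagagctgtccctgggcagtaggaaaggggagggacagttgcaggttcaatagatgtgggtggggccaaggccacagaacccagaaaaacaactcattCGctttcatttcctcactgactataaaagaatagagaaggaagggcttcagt

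The BIRC3 sequence held kappa B matches 199 to 190 and 135 to 126 bases before the start, and the BMF sequence held 1 at 20 to 11 bases. Among the genes called in no comparison 2 promoters, of FAS and CFLAR, also held a match, so that 2 of the 12 promoters of called genes and 2 of the 40 of the others did. Of all promoters listed, 5.21% held such a match on either strand. A GC box (GGGCGG on either strand) was found in BMF at 45 to 40 bases and not in BIRC3, against 42.6% of all promoters. In all, 30 of the 40 members had 52 promoters in the sequences used, and a GC box was found in 7 of the 12 promoters of called genes and in 28 of the 40 of genes that were not called. These counts are of promoters and not of genes. Some are overlapping stretches before different starts of 1 gene, as for BID, and are not independent. The 10 members without a promoter include the called genes TNFRSF10A and CASP10, so these counts do not cover them. Members on chromosome 8 were left out by rule, whereas the shares of all promoters include that chromosome. A second listed BMF start had 0 CG dinucleotides and no kappa B match. Other called genes that fell had more CG dinucleotides than BBC3 and TNFSF10, at 38 for APAF1 and 34 for BCL2L11. BID has 5 listed starts, whose upstream sequences hold 4 to 30 CG dinucleotides. A match is a description of these letters and not of a factor's binding, and methylation was not measured on these arrays.

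The 2 siRNAs against UHRF1 were compared gene by gene. A difference of at least 2-fold in the same direction with both siRNAs was seen for BIRC3 alone with depletion under mock, for no member with depletion under TSA, and for BMF, BBC3, TNFSF10, CASP10 and BIRC3 with TSA in depleted cells. In the combination the genes were BID, BMF, BBC3 and TNFSF10. No share of all genes with both siRNAs at 2-fold is given, so the lists are not set apart from the background. By mean change, at least 2-fold differences were seen for 1336 of 16786 genes with depletion under mock and 2241 of 17948 with depletion under TSA. They numbered 4265 of 17977 with TSA in depleted cells and 5072 of 17869 in the combination. All these pairs of siRNA values share the siCONT arrays or the agent, so they are not independent.

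**Figure D5:**
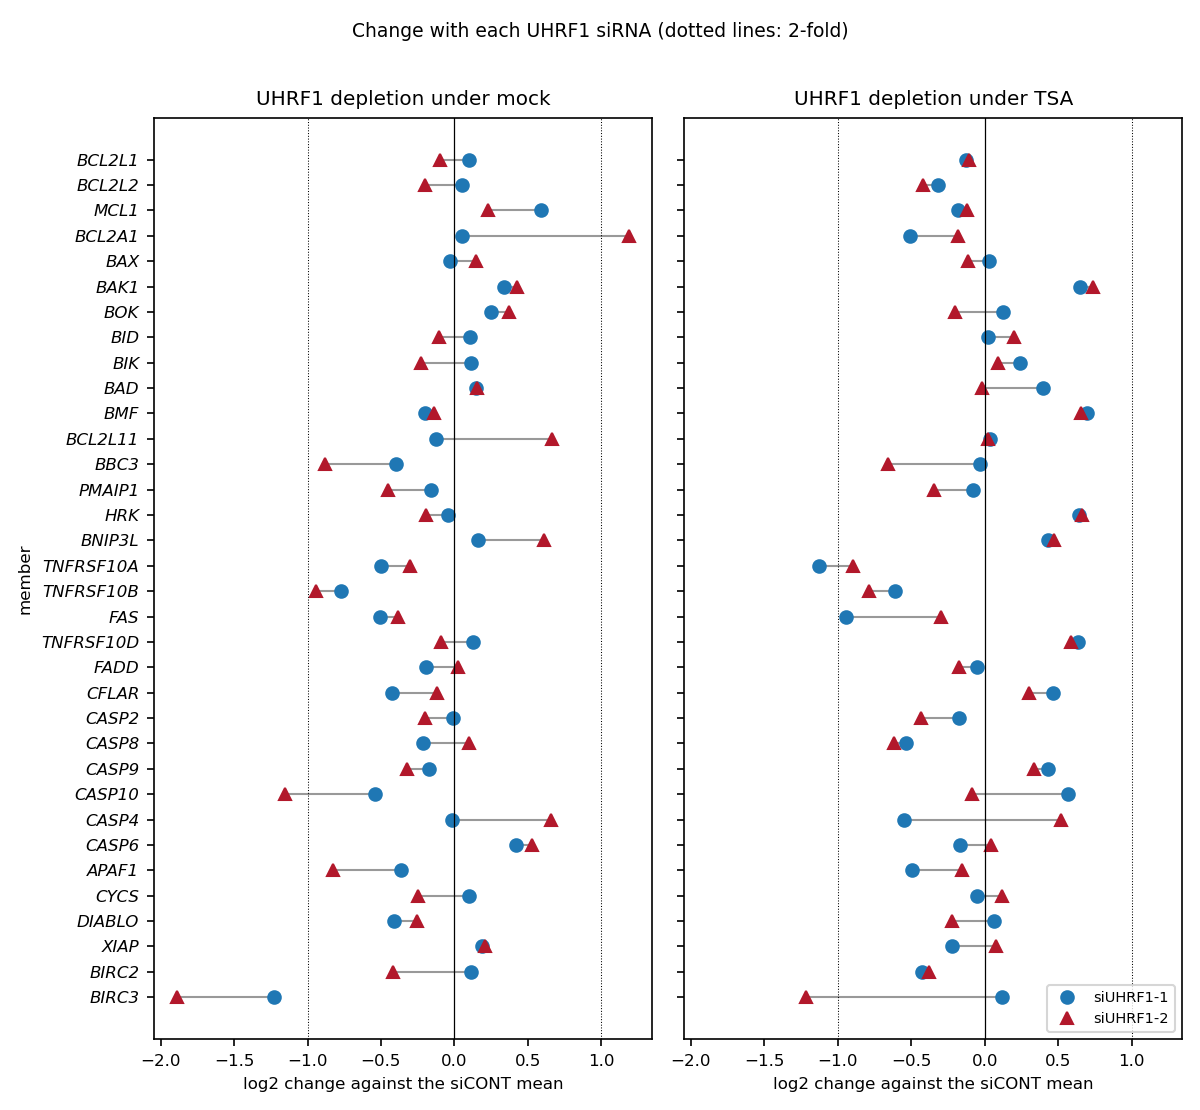
Log2 change against siCONT with each of the 2 UHRF1 siRNAs, under mock and under TSA, for the 34 members above background on all arrays. BIRC3 has -1.23 and -1.89 under mock and 0.12 and -1.22 under TSA, and the TNFRSF10A values under TSA are -1.13 and -0.89.

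Beyond the 40 members, 32 other genes of the same pathways were examined. TSA called 3 of 28 higher and 4 lower in siCONT, against 10.4% and 8.33% of all genes. In depleted cells it called 3 higher and 5 lower, against 12.2% and 9.07%, and the combination 3 and 5, against 15.3% and 11.1%. Depletion called 0 of 27 higher and 3 lower under mock, against 3.31% and 0.900%. Under TSA it called 0 of 28 higher and 2 lower, against 5.92% and 2.88%. With siCONT as 1 sample none of the calls with depletion, under either agent, or with TSA in siCONT was kept. BIRC5, which encodes survivin, a protein of mitosis as well as of cell survival, read 5.75 and 5.76 in siCONT mock, 5.94 and 5.76 in siUHRF1 mock, 4.57 and 4.55 in siCONT TSA and 3.49 and 3.43 in siUHRF1 TSA. The levels of both siUHRF1 TSA arrays were below all others. BIRC5 fell by 1.19 with TSA in siCONT (adjusted p = 0.00121), a call lost with siCONT as 1 sample. In depleted cells BIRC5 fell by 2.39 (adjusted p = 0.000135), a call kept in that fit. The interaction of -1.19 (SE 0.17, adjusted p = 0.0238) was called, but not with siCONT as 1 sample. It was not called with the siRNA number as a block within each arm (adjusted p = 0.0617).

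TNFRSF1A, a receptor of TNF, fell by 1.38 in the combination (SE 0.14, adjusted p = 0.000727, and 0.0339), and RIPK1, a kinase at that receptor, was not called. TNFRSF21, which encodes DR6, rose by 2.39 with TSA in depleted cells (SE 0.19, adjusted p = 0.000518, and 0.00705), and TNFAIP3, a brake on NF-kappa B, rose by 2.10 (SE 0.28, adjusted p = 0.00246, and 0.0169). TNFRSF11B, a soluble receptor that binds TRAIL, was at least 4.38-fold higher in that comparison (adjusted p = 0.00347, and 0.012).

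The transcript levels of these genes do not measure protein, caspase cleavage or cell death, which the arrays did not assay. With 2 arrays a group their number limits the precision, and the SE of a member's change was 0.11 to 0.44 among the called genes.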

How the data were processed

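RNA from 4 groups of DLD1 cells was hybridised to 8 single-colour Agilent arrays. Spot intensity was extracted by the authors with Agilent Feature Extraction (10.7 per the labels, 10.7.3.1 per the file headers); their GeneSpring normalization is not given in the sources used here. The deposited linear processed intensities were averaged over spots, outlier spots dropped, and expressed as log2 over each array's 75th percentile. limma 3.58.1 in R 4.3.3 fitted 4 group means to 24591 probes (4 residual degrees of freedom). A probe was tested where well above background on both arrays of a group compared, and each gene was represented by its brightest probe. Calls needed an adjusted p below 0.05 and 2-fold, except with the methods' t-test, which was judged at an unadjusted p below 0.05 and 2-fold. Every member was counted, array values were given for called members, and other apoptosis genes were named if listed by name or called at 4-fold. A fit with siCONT as 1 sample used 6 samples. The members and lists were chosen with earlier results of these data known. The fit was tested on simulated data. Promoters are RefSeq's. Alternatives are in the closing section. Some genes of the other lists are not reported here.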

Additional observations from a re-analysis of the deposited data

How the results depend on the processing

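None of the 18 called changes of members turned its sign under any of up to 22 alternatives, and 331 of the 393 combinations of change and alternative were still called. The members called with TSA in depleted cells numbered 7, against 4 with normexp background correction, 3 with the methods' t-test and 15 with no fold minimum (7203 of all 17977 genes). In all these counts, the 331 included, the t-test was judged at an unadjusted p. With adjustment it called 0 members in that comparison, 3 with TSA in siCONT, 2 in the combination and 0 with depletion under either agent. For TSA in siCONT the 4 became 2 with no filter on dim probes, 0 with siCONT as 1 sample, 15 with no fold minimum (7123 of all 17405) and 2 to 4 with 1 array left out. For the combination the 6 became 3 with siCONT as 1 sample, 3 with the mean over probes, 19 with no fold minimum (8643 of all 17869) and 3 to 6 with 1 array left out. Depletion under TSA called 1, against 2 with median scaling, 0 with the 75th percentile of detected probes, 0 with normexp and 7 with no fold minimum. This call was also lost with siCONT as 1 sample and without either siCONT TSA array or siRNA 1 under TSA. With no fold minimum the calls over all genes were 3290 of 17948 here, 1458 of 16786 for depletion under mock and 1106 of 18415 for the interaction. Depletion under mock called 0, against 1 (BIRC3) with the replicate block within siRNA arm, 1 with an intensity trend, 1 with the methods' t-test, 1 with no fold minimum (TNFRSF10B) and 0 to 2 with 1 array left out. The interaction called 0, against 1 with no fold minimum (BMF) and 0 to 1 with 1 array left out.

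Higher and lower members also split differently by scaling. For TSA in siCONT they were 1 and 3, against 3 and 3 with quantile and 3 and 2 with the percentile of detected probes. The combination gave 2 and 4, against 0 and 7 with median scaling, 3 and 3 with quantile and 5 and 1 with detected probes. TSA in depleted cells gave 3 and 4, against 2 and 7 with median scaling and 4 and 3 with detected probes. Some members not called in the main fit were called under other scalings. BCL2L1 and BNIP3L were so with quantile and detected probes, and BCL2A1, BOK, BAD and TNFRSF10B with median scaling. Median scaling moved the median of all genes to -0.54 in the combination and -0.43 for TSA in depleted cells, from -0.14 and -0.04. It took the calls over all genes from 4721 to 6298 in the combination and from 3827 to 5179 for TSA in depleted cells. The other member counts under alternative scalings are given without the share over all genes. The siUHRF1 arrays of a number share an siRNA by their labels, and their deviations correlated at 0.337 across agents, while the siCONT arrays, whose numbers carry no such meaning, gave 0.074 and pairs across siRNAs -0.056 and 0.023. A replicate block within each siRNA arm called 1 member (BIRC3) with depletion under mock and 7 in the combination, BIRC3 being added to the 6, and changed no other member count. It took the interaction over all genes from 928 calls to 0. A replicate block over all arrays called the same number of members as the fit without it in every comparison, 0, 4, 6, 1, 7 and 0. Dim probes such as TNFSF10 give bounds only.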

Other observations

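Over all 66 probes of the members, the calls for TSA in depleted cells were 3 higher and 6 lower of 55 tested, and for TSA in siCONT 1 higher and 6 lower of 57. BID and TNFSF10 were each counted by more than 1 called probe there. Among all genes tested, by brightest probe, 12.2% were called higher and 9.07% lower in depleted cells, and 10.4% and 8.33% in siCONT. No share over all probes is given, so these probe counts show no lean of the members. Probes other than a gene's brightest were called for CFLAR with depletion under mock, for TNFSF10, BID and BCL2L11 with TSA in siCONT, for BID and CYCS in the combination, for CFLAR and FAS with depletion under TSA, for TNFSF10 and BID with TSA in depleted cells, and for BCL2L11 in the interaction.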
